A study of Mus musculus with 9 samples.

Results

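The SR proteins and the heterogeneous nuclear ribonucleoproteins (hnRNPs) are the main families of RNA-binding splicing regulators, and their mRNAs were followed here through CELF2 RNA immunoprecipitation (RIP). The members were chosen by symbol: protein-coding genes named Srsf with a number (*Srsf1* to *Srsf7* and *Srsf9* to *Srsf11*) or with a name that starts with Hnrnp. *Srsf12* was left out by the rule. The rule gave 31 genes, 10 Srsf and 21 Hnrnp, of 21254 protein-coding genes with a transcript row in the deposited table. These genes held 142 transcript rows of 107384, of which 71 were curated coding rows (NM_), 50 predicted coding rows (XM_), 5 curated noncoding rows (NR_) and 16 predicted noncoding rows (XR_), and 131 rows had a count in some library. All 31 genes passed the filter on low counts.

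The 9 libraries came from the cytoplasmic fraction of whole cortex of mice at postnatal day 0, and all of them shared the genotype heterozygous CELF2 p.R493H, a knock-in of a single amino acid change. The 3 groups held 3 biological replicates each: RNA pulled down with a rabbit antibody against CELF2 (CELF2 RIP), RNA pulled down with normal rabbit IgG (IgG RIP), and RNA from an aliquot taken before the pull-down (input). No wild-type library is among the samples, so each comparison is between RNA fractions and not between genotypes. The labels do not describe the antibody as specific to either allele, and markers of neurons, glia and vessel cells were all counted in the lysate.

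SR proteins carry RNA recognition motifs and a domain rich in arginine and serine, bind exonic enhancers and recruit the spliceosome, and several of them accompany mRNAs to the cytoplasm. The hnRNPs coat nascent transcripts, often act against SR proteins at splice sites, and include factors of mRNA transport and decay. Many genes of both families control their own level through alternative transcripts that carry a premature stop or lack an open reading frame, and RefSeq lists some of these as noncoding transcripts. CELF2 is an RNA-binding protein that regulates splicing in the nucleus and mRNA stability and translation in the cytoplasm.

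Total estimated counts were 15919600 to 20052716 in CELF2 RIP, 17365561 to 28773130 in the IgG controls and 69125700 to 105116427 in input, so values in input rest on the most counts. Rows with no match in the gene table held 21.1% to 43.5% of the counts in IgG RIP, against 11.6% to 12.6% in CELF2 RIP and 9.24% to 9.75% in input. Summed marker levels also differed between the fractions. The 8 excitatory neuron markers summed to 1681 to 2290 counts scaled to an equal library size (CPM) in CELF2 RIP, 913 to 1062 CPM in the IgG controls and 994 to 1165 CPM in input. Those of inhibitory neurons, 6 genes, were also highest in CELF2 RIP, with 587 to 724 CPM, 330 to 382 CPM and 462 to 479 CPM. The 6 erythroid markers summed to 92.7 to 95.0 CPM, 366 to 584 CPM and 877 to 1135 CPM, and the 7 radial glia markers to 507 to 966 CPM, 765 to 849 CPM and 1159.9 to 1362 CPM. Of 10 nuclear-retained noncoding RNAs, 9 were found, and they summed to 8582 to 12177 CPM in CELF2 RIP, 7895 to 12585 CPM in the IgG controls and 5094 to 5952 CPM in input. No marker on these lists was at 0 in all libraries, and the part of these differences in the results was not tested. The groups are RNA fractions of cytoplasmic lysate, so these sums compare what each fraction held. They do not measure the number of cells of a type or the amount of an mRNA per cell. Bulk lysates also do not show which cells the RNA of a fraction came from.

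Together the members held 0.461%, 0.426% and 0.426% of the counts of protein-coding genes in CELF2 RIP, 0.392%, 0.350% and 0.406% in the IgG controls and 0.435%, 0.455% and 0.440% in input. The CELF2 RIP libraries lay above the IgG RIP libraries and overlapped the input libraries. Within this sum the genes went both ways, as the plot of fold changes by family shows.

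**Figure D1:**
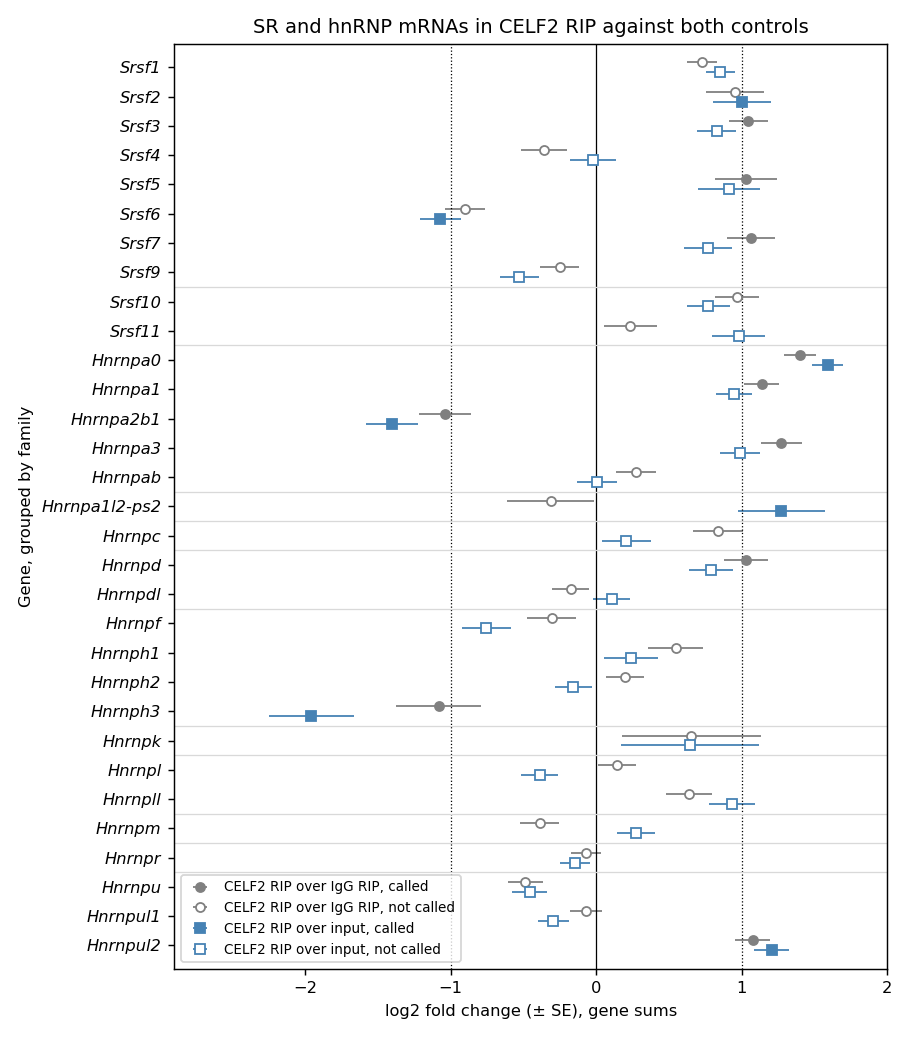
Log2 fold change (± SE) of each of the 31 genes in CELF2 RIP over IgG RIP (grey circles) and over input (blue squares), by family; filled symbols passed FDR under 0.01 and 2-fold, and dotted lines mark 2-fold. *Hnrnpa0* and *Hnrnpul2* lie past 2-fold to the right in both comparisons, and *Hnrnpa2b1* and *Hnrnph3* past 2-fold to the left.

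Against IgG RIP, 8 of the 31 genes were higher in CELF2 RIP and 2 were lower, at an edgeR quasi-likelihood FDR under 0.01 and at least 2-fold. Of all 15267 genes tested, 13.4% were called higher and 13.6% lower. The 8 were *Srsf3*, *Srsf5* and *Srsf7* among the SR genes, and *Hnrnpa0*, *Hnrnpa1*, *Hnrnpa3*, *Hnrnpd* and *Hnrnpul2* among the hnRNP genes. The 2 were *Hnrnpa2b1* and *Hnrnph3*. With the FDR alone and no fold threshold, 13 members were higher and 4 lower, beside 22.9% and 19.2% of all genes. The median log2 fold change was 0.27 for the members and -0.06 for all genes tested. It was 0.84 for the 10 SR genes and 0.20 for the 21 hnRNP genes. All 3 CELF2 RIP libraries lay above all 3 IgG RIP libraries in 14 members and below them in 7, beside 30.0% and 27.4% of all genes.

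Against input, 4 of the 31 genes were higher and 3 were lower, beside 14.6% and 15.5% of all genes tested. The 4 were *Srsf2*, *Hnrnpa0*, *Hnrnpul2* and *Hnrnpa1l2-ps2*, and the 3 were *Srsf6*, *Hnrnpa2b1* and *Hnrnph3*. With the FDR alone, 14 were higher and 6 lower, beside 26.8% and 20.1% of all genes. The members' median was 0.28 and that of all genes 0.19, with 0.80 for the SR genes and 0.21 for the hnRNP genes. Libraries did not overlap in 16 members that lay above input and 8 that lay below it, beside 42.1% and 31.8% of all genes. Both comparisons use the same CELF2 RIP libraries. *Hnrnpa0* and *Hnrnpul2* were called higher against both controls, as were 7.58% of all genes, and *Hnrnpa2b1* and *Hnrnph3* lower against both, as were 9.54%.

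These counts depend on how the libraries are scaled. Scaled to total counts, the median of all genes moved from -0.06 to -0.42 over IgG RIP and from 0.19 to -0.27 over input, a shift larger than the medians of the hnRNP genes. Members called over IgG RIP then became 1 higher and 3 lower, and over input 1 higher and 4 lower. With upper quartile scaling they were 2 higher and 3 lower, and 1 higher and 3 lower, and with DESeq2's size factors 4 higher and 2 lower over IgG RIP. A fold below is relative to edgeR's default scaling (TMM).

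*Hnrnpa0*, a single-exon gene at chr13:58125879-58128556 (mm10) whose product binds AU-rich elements in mRNAs, showed the largest rise of the family in both comparisons. Its levels were 640.0, 746 and 767 CPM in the CELF2 RIP libraries, 283, 268 and 265 CPM in the IgG controls, and 235, 258 and 222 CPM in the input samples. Every CELF2 RIP library was more than 2 times any control library, and IgG RIP lay slightly above input. It rose with a log2 fold change of 1.40 (SE 0.11, FDR 9.36e-06) over IgG RIP and a log2 fold change of 1.59 (SE 0.11, FDR 2.65e-06) over input. It was called under every alternative scaling, filter and test run and in each of the 9 fits without 1 library, and it also passed a test against a 2-fold threshold in both comparisons.

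*Hnrnpa1* and *Hnrnpa3*, the other A/B genes that were higher than in IgG RIP, encode shuttling proteins that repress splice sites and bind mature mRNAs. *Hnrnpa1* (chr15:103239943-103246698) stood at 727, 843 and 790.1 CPM in the CELF2 RIP libraries, 342, 314 and 416 CPM in the IgG controls, and 407, 424 and 392 CPM in the input samples. *Hnrnpa3* (chr2:75659105-75669407) stood at 378, 467 and 352 CPM in the CELF2 RIP libraries, 172, 155 and 169 CPM in the IgG controls, and 215, 218 and 170.3 CPM in the input samples. In both genes the 3 CELF2 RIP libraries lay above all 6 control libraries, while IgG RIP and input overlapped. Over IgG RIP the log2 fold change of *Hnrnpa1* was 1.14 (SE 0.12, FDR 3.57e-05). That of *Hnrnpa3* was 1.27 (SE 0.14, FDR 4.25e-05). Over input they were 0.95 and 0.99, just short of 2-fold, and from NM_ rows only both were called, with 1.002 and 1.78. That setting leaves out noncoding rows, whose share of the counts in both genes was larger in input than in CELF2 RIP. Scaling to total counts ended both calls over IgG RIP, and upper quartile scaling ended that of *Hnrnpa1*.

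*Hnrnpa2b1*, of the same A/B subfamily, went the other way. Its product binds transport elements in dendritic mRNAs, and the gene lies at chr6:51460434-51470048. It was counted at 109, 98.2 and 76.5 CPM in the CELF2 RIP libraries, 223, 152 and 207 CPM in the IgG controls, and 227, 239 and 285 CPM in the input samples. Each CELF2 RIP library was below each control library, and IgG RIP was below input. Its log2 fold change was -1.04 (SE 0.18, FDR 6.69e-04) over IgG RIP and -1.40 (SE 0.18, FDR 8.85e-05) over input. Over IgG RIP the fall was just under 2-fold without CELF2 RIP replicate 3 (-0.91), IgG RIP replicate 1 (-0.93) or IgG RIP replicate 3 (-0.99). The fifth gene, *Hnrnpab*, which encodes a CArG box and mRNA binding hnRNP, had log2 fold changes of 0.27 and 0.01 and was not called.

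**Figure D2:**
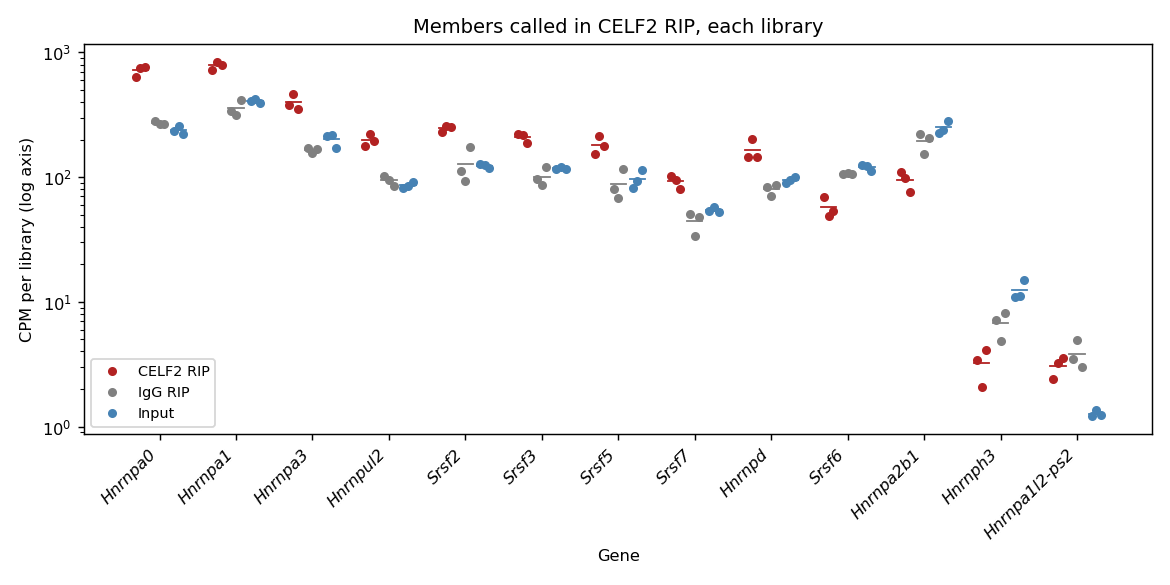
CPM in each of the 9 libraries (log axis; dots are libraries, lines are group means) for the 13 members called in CELF2 RIP against a control. The 3 CELF2 RIP libraries lie above all 6 controls for the first 9 genes and below them for *Srsf6*, *Hnrnpa2b1* and *Hnrnph3*, and both pull-downs lie above input for *Hnrnpa1l2-ps2*.

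*Hnrnpul2*, of the hnRNP U group and linked to the DNA damage response, was the second gene higher than both controls. The gene lies at chr19:8819401-8834143. Its levels were 177, 223 and 195 CPM in the CELF2 RIP libraries, 102, 95.3 and 84.9 CPM in the IgG controls, and 81.5, 85.4 and 91.0 CPM in the input samples. The lowest CELF2 RIP library was above the highest control library. It rose with a log2 fold change of 1.08 (SE 0.12, FDR 4.74e-05) over IgG RIP and a log2 fold change of 1.21 (SE 0.12, FDR 2.18e-05) over input. Over IgG RIP the call was lost without CELF2 RIP replicate 2 (0.98) or input replicate 2 (0.97), without a filter, with upper quartile or total count scaling, and with only NM_ or version-matched rows. Over input it was lost with total counts (0.74) or the upper quartile (0.97). Its paralogs did not follow. *Hnrnpu*, a nuclear scaffold protein, had -0.49 and -0.46, past the FDR of 0.01 in both comparisons but short of 2-fold, and *Hnrnpul1* had -0.07 and -0.29.

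*Hnrnph3* of the F/H group, whose proteins bind runs of G, was lower than both controls but rests on few counts. The gene lies at chr10:63014664-63023980. It stood at 3.44, 2.08 and 4.11 CPM in the CELF2 RIP libraries, 7.196, 4.86 and 8.17 CPM in the IgG controls, and 11.01, 11.2 and 15.0 CPM in the input samples, which are 27 to 46 counts per CELF2 RIP library. The groups fell in order with no overlap, CELF2 RIP lowest and input highest. Its log2 fold change was -1.08 (SE 0.29, FDR 0.009995) over IgG RIP and -1.96 (SE 0.29, FDR 2.34e-04) over input. The call over IgG RIP was lost in 7 of the 9 fits without 1 library, all but those without CELF2 RIP replicate 3 or IgG RIP replicate 2, with log2 fold changes between -1.30 and -0.85 and a largest FDR of 0.0331. The call over input held in all 9. Its curated coding row was listed at 0 in every library, and its counts lay in predicted coding rows. *Hnrnpf*, *Hnrnph1* and *Hnrnph2* were not called, with -0.31, 0.55 and 0.20 over IgG RIP and -0.75, 0.24 and -0.16 over input.

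*Hnrnpd*, which encodes the AU-rich element decay factor AUF1, was higher than in IgG RIP. Its levels were 145, 203 and 145 CPM in the CELF2 RIP libraries, 83.7, 70.4 and 87.0 CPM in the IgG controls, and 89.9, 94.6 and 101 CPM in the input samples. CELF2 RIP lay above all controls, with replicate 2 the highest. Its log2 fold change was 1.03 (SE 0.15, FDR 2.51e-04) over IgG RIP, and 0.79 over input. Without CELF2 RIP replicate 2 it was 0.85, without IgG RIP replicate 2 it was 0.95 and without input replicate 2 it was 0.93, all short of 2-fold with an FDR still under 0.01, and the call was also lost with DESeq2's size factors, total counts, the upper quartile, no filter or DESeq2's Wald test. Its paralog *Hnrnpdl* had -0.18 and 0.11.

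The other hnRNP genes were not called in CELF2 RIP against IgG RIP or input. *Hnrnpc*, a nuclear protein that binds U tracts, had 0.84 and 0.21. *Hnrnpl*, which binds CA repeats, had 0.14 and -0.39, and its paralog *Hnrnpll* had 0.64 and 0.93. *Hnrnpm* had -0.39 and 0.28, and *Hnrnpr*, which binds axonal mRNAs, -0.07 and -0.14. *Hnrnpk*, which binds C-rich RNA, had 0.65 and 0.65 with the largest SE of the family (0.48 and 0.47). Its IgG RIP libraries stood at 143, 61.0 and 22.6 CPM, a spread that covers all CELF2 RIP and input libraries. Without IgG RIP replicate 1 it was called higher over IgG RIP (1.51, FDR 0.00584).

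Of the 10 SR genes, 6 were higher over IgG RIP at the FDR of 0.01, beside 22.9% of all genes, and 3 of them also passed 2-fold, beside 13.4%. Over IgG RIP, the called *Srsf7* had 1.06 (SE 0.16, FDR 3.53e-04), *Srsf3* 1.05 (SE 0.13, FDR 1.12e-04) and *Srsf5* 1.03 (SE 0.21, FDR 0.00213). *Srsf3* and *Srsf7* encode small SR proteins that couple splicing to mRNA export. *Srsf1*, *Srsf2* and *Srsf10* passed the FDR but not 2-fold, with 0.73, 0.96 and 0.97. From NM_ rows only, *Srsf2* was called over IgG RIP with 2.39. That setting leaves out its predicted coding row, which held 68.5, 66.3 and 84.7% of the gene's counts in IgG RIP. In CELF2 RIP the same row held 29.7, 22.8 and 26.2%. The calls of *Srsf3*, *Srsf5* and *Srsf7* were lost with DESeq2's size factors, total counts, the upper quartile, no filter or DESeq2's Wald test, that of *Srsf3* also with version-matched rows and that of *Srsf5* with NM_ rows only. They were also lost without IgG RIP replicate 2 (0.95, 0.89 and 0.91) or input replicate 2 (0.94, 0.93 and 0.96), that of *Srsf7* without CELF2 RIP replicate 1 (0.98), and that of *Srsf5* without CELF2 RIP replicate 2 (0.90) or IgG RIP replicate 1 (0.96).

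*Srsf2*, an SR protein that stays mostly in the nucleus, was the SR gene called higher than input. Its levels were 229, 259 and 251 CPM in the CELF2 RIP libraries, 113, 92.7 and 176 CPM in the IgG controls, and 127, 124 and 117 CPM in the input samples. All CELF2 RIP libraries were above all controls, and IgG RIP replicate 3 was the highest control. Its log2 fold change was 1.004 (SE 0.20, FDR 0.00143) over input. The replicate numbers pair CELF2 RIP with input, and with the replicate as a block the fold change fell just below 2-fold (0.9996, FDR 0.00282), which ended the call. The call was also lost with total counts (0.54, FDR 0.0321), the upper quartile (0.77), DESeq2's size factors or Wald test (0.86), or no filter (0.89), and without CELF2 RIP replicate 2 (0.97), CELF2 RIP replicate 3 (0.99), input replicate 2 (0.90) or input replicate 3 (0.97). Over input, *Srsf1*, *Srsf3*, *Srsf5*, *Srsf7*, *Srsf10* and *Srsf11* lay between 0.77 and 0.98, past the FDR and short of 2-fold.

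*Srsf6* was the SR gene called lower. It encodes a larger SR protein of the same phosphorylated family, and the gene lies at chr2:162931508-162937121. Its levels were 69.7, 48.4 and 53.3 CPM in the CELF2 RIP libraries, 105, 108 and 106 CPM in the IgG controls, and 125, 124 and 111 CPM in the input samples. Each CELF2 RIP library was below each control library. Its log2 fold change was -1.07 (SE 0.14, FDR 9.75e-05) over input, and -0.90 (FDR 3.45e-04) over IgG RIP, short of 2-fold; it was called there with total counts (-1.26), the upper quartile (-1.16) or NM_ rows only (-1.05). Without CELF2 RIP replicate 2 the fall below input was -0.96. *Srsf4* and *Srsf9* were not called, with -0.36 and -0.25 over IgG RIP and -0.02 and -0.53 over input.

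IgG RIP and input, compared to show what the beads and a nonspecific antibody retain, differed in few members. A single member, *Hnrnpa1l2-ps2*, was higher in IgG RIP and 0 were lower, beside 6.79% and 5.0% of all genes tested. Before adjustment, 4 members were higher and 5 were lower in edgeR's test at p under 0.05, beside 24.8% and 24.2% of all genes, and DESeq2's Wald test also called 0 lower. All IgG RIP libraries lay above all input libraries in 5 members and below them in 12, beside 27.1% and 29.4% of all genes. *Hnrnpa1l2-ps2* is a copy of *Hnrnpa1* with a pseudogene name, classed as protein-coding in the gene table, and reads that match both could be split between them. Its levels were 2.40, 3.23 and 3.57 CPM in the CELF2 RIP libraries, 3.50, 4.96 and 3.01 CPM in the IgG controls, and 1.21, 1.37 and 1.23 CPM in the input samples. Both pull-downs lay above input and overlapped each other. Its log2 fold change was 1.58 (SE 0.30, FDR 0.00267) in IgG RIP over input, and 1.27 (FDR 0.00411) in CELF2 RIP over input. The first call was lost without IgG RIP replicate 2 or any 1 input replicate (largest FDR 0.0177), and the second without CELF2 RIP replicate 2 or 3 or any 1 input replicate (largest FDR 0.0219). With NM_ rows only both calls were lost, and that of CELF2 RIP over input also with total counts (0.80, FDR 0.0425), the upper quartile or version-matched rows.

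The question the transcript rows answer is whether the coding and the noncoding transcripts of a gene were pulled down alike. Counts per row are estimates of the quantifier, which shares reads among overlapping transcripts, and the error of that sharing is not in the file. Over the 31 genes, NR_ rows held 1.22% to 1.64% of the counts in CELF2 RIP, 2.13% to 2.95% in the IgG controls and 1.60% to 2.07% in input. CELF2 RIP lay below IgG RIP with no overlap and overlapped input. Almost all these counts came from 3 genes, *Hnrnpa1*, *Srsf3* and *Srsf9*. Mean NR_ levels in CELF2 RIP and IgG RIP were 30.4 and 56.8 CPM in *Hnrnpa1*, 40.9 and 28.3 CPM in *Srsf3*, and 5.38 and 7.13 CPM in *Srsf9*. The lower share in CELF2 RIP was thus mainly that of *Hnrnpa1* and does not describe the 31 genes. In all protein-coding genes, NR_ rows held 0.420% to 0.487%, 0.465% to 0.552% and 0.401% to 0.425%. XR_ rows held 3.93% to 4.69% of the members' counts in CELF2 RIP, 6.46% to 7.08% in the IgG controls and 8.53% to 10.2% in input, with no overlap between any of the groups. Most of these counts lay in XR_868868.2 of *Hnrnpa2b1* (52079 over all libraries) and XR_866271.2 of *Hnrnpa3* (32303). *Hnrnpa2b1* was itself lower in CELF2 RIP as a gene, so this share also follows gene levels. In all protein-coding genes, XR_ rows held 1.65% to 1.81%, 2.34% to 2.91% and 1.58% to 1.68%, with IgG RIP the highest.

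Of the 5 members with an NR_ row (*Hnrnpa1*, *Hnrnpa2b1*, *Srsf3*, *Srsf7* and *Srsf9*), 3 passed the filter. The NR_ row of *Hnrnpa2b1* was listed at 0 in all libraries, and that of *Srsf7* had too few counts. The ratio of NR_ to coding counts, tested with limma over 390 genes, was called in 1 member over IgG RIP, lower in *Hnrnpa1*, beside 1.54% of genes called lower and 1.03% higher. Against input limma called 0 members in either direction, beside 0% of genes higher and 0.513% lower, and between IgG RIP and input also 0, beside 3.59% and 0.769%.

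In *Hnrnpa1* the share of the NR_ row in the NR_ and coding counts was 2.78, 3.58 and 5.64% in the CELF2 RIP libraries, 20.1, 17.2 and 12.9% in the IgG controls, and 10.2, 10.2 and 6.74% in the input samples. The 3 groups did not overlap: the share was highest in IgG RIP, intermediate in input and lowest in CELF2 RIP. The log2 difference was -2.31 (SE 0.38, FDR 0.0162) over IgG RIP, -1.29 (FDR 0.173) over input, and 1.02 (FDR 0.192) for IgG RIP over input. The unadjusted limma p was 0.00888 over input and 0.0273 for IgG RIP over input. edgeR's diffSpliceDGE, run on the same sums, gave an FDR of 0.0314 over input. The call over IgG RIP was lost without CELF2 RIP replicate 1 (-2.07, FDR 0.0534) or replicate 2 (-2.26, FDR 0.0560). It was also lost with the replicate as a block (-2.31, FDR 0.0783).

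Against IgG RIP, the amounts behind this ratio moved in opposite directions. Mean coding counts of *Hnrnpa1* on the gene scale were 726 CPM in CELF2 RIP, 287 CPM in the IgG controls and 356 CPM in input. The NR_ row had means of 30.4 CPM, 56.8 CPM and 35.8 CPM. In this row CELF2 RIP (19.7, 28.8 and 42.6 CPM) lay below IgG RIP but overlapped input (40.6, 42.5 and 24.3 CPM). In *Srsf3* both kinds were higher in CELF2 RIP than in IgG RIP, with means of 168 CPM against 72.9 CPM for the coding row and 40.9 CPM against 28.3 CPM for the NR_ row.

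In *Srsf3*, whose NR_ transcript belongs to a gene known for controlling its own splicing, the NR_ share was 17.7, 21.1 and 19.9% in the CELF2 RIP libraries, 31.00, 31.5 and 23.0% in the IgG controls, and 27.6, 27.3 and 27.6% in the input samples. CELF2 RIP lay below both controls with no overlap, and IgG RIP and input overlapped. The log2 difference was -0.70 (SE 0.28, FDR 0.232) over IgG RIP and -0.64 (FDR 0.5096) over input, neither called. In *Srsf9* the share was 29.6, 26.7 and 21.4% in the CELF2 RIP libraries, 38.3, 30.4 and 18.3% in the IgG controls, and 21.6, 20.02 and 21.7% in the input samples, and CELF2 RIP overlapped IgG RIP. Its log2 differences were -0.18 (FDR 0.874) over IgG RIP and 0.38 (FDR 0.979) over input.

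**Figure D3:**
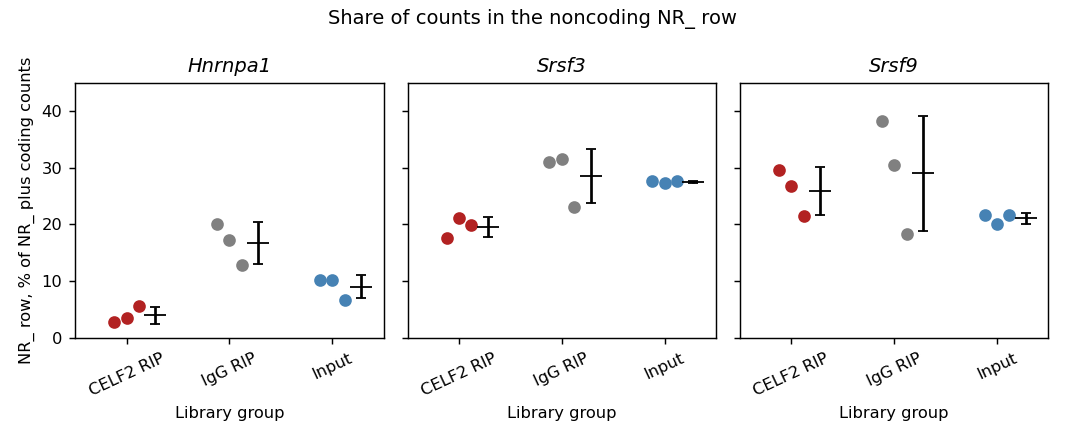
Share of NR_ plus coding counts held by the NR_ row, in percent, in each library of the 3 groups (dots), with the mean ± SD beside them, n = 3. The *Hnrnpa1* share is lowest in CELF2 RIP and highest in IgG RIP with no overlap, that of *Srsf3* is lowest in CELF2 RIP, and the *Srsf9* groups CELF2 RIP and IgG RIP overlap.

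With predicted noncoding rows added to the NR_ rows, an alternative chosen after the data were seen, 1757 genes could be tested. *Hnrnpa1* was again lower over IgG RIP (-1.64, FDR 0.0119), beside 3.41% of genes lower and 1.25% higher. *Hnrnpa3* was lower over input (-2.04, FDR 0.0171), beside 1.31% of genes lower and 1.20% higher. Its noncoding share was 21.6, 26.1 and 31.7% in the CELF2 RIP libraries, 43.9, 44.5 and 55.6% in the IgG controls, and 55.0, 52.8 and 69.6% in the input samples. CELF2 RIP lay below both controls, which overlapped. *Hnrnpa2b1* was lower in IgG RIP over input (-1.09, FDR 0.0276), beside 1.37% of genes lower and 5.29% higher, and its noncoding share of 83.6, 83.9 and 76.1% in the CELF2 RIP libraries, 72.9, 70.6 and 67.7% in the IgG controls, and 83.8, 83.8 and 82.8% in the input samples was the highest of the members with such rows. A curated coding row of this gene, NM_016806.3, was listed at 0 in every library. How the quantifier shared reads among the rows of *Hnrnpa2b1* was not tested.

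Row by row, 91 of 121 coding rows and 3 of 5 NR_ rows of the members were tested. In CELF2 RIP over IgG RIP, 7 coding rows were higher and 1 lower, beside 5.56% and 2.0% of coding rows of all protein-coding genes. Of the 3 NR_ rows, 0 were called in any comparison. All NR_ rows of protein-coding genes were called higher or lower in 2.28% and 0.911% over IgG RIP, in 0.228% and 0.683% over input, and in 0.228% and 0.911% between the controls. The nearest was the NR_ row of *Srsf3* in IgG RIP over input, with a log2 fold change of -0.88 and an edgeR FDR of 0.00728. At an unadjusted p under 0.05, *Srsf3* was higher and *Hnrnpa1* lower over IgG RIP, *Hnrnpa1* and *Srsf9* lower over input, and *Srsf3* lower in IgG RIP over input, and DESeq2's Wald test also called 0 NR_ rows. The rows are scaled on all rows of the table, and their log2 values differ from the gene scale by 0.10 over IgG RIP, by -0.59 over input and by -0.69 for IgG RIP over input.

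Among the called rows, the largest rises were those of 1 coding row each of *Srsf2* and *Srsf1*. The *Srsf2* row NM_011358.2 stood at 113, 122 and 122 CPM in the CELF2 RIP libraries, 21.0, 18.3 and 17.8 CPM in the IgG controls, and 77.1, 69.2 and 66.1 CPM in the input samples. The IgG RIP libraries were far below both other groups, and CELF2 RIP was above input. It rose over IgG RIP with a log2 fold change of 2.65 (SE 0.12, FDR 4.28e-04). The *Srsf1* row NM_173374.4 stood at 147, 129 and 134 CPM in the CELF2 RIP libraries, 25.2, 29.6 and 12.7 CPM in the IgG controls, and 121, 113 and 104 CPM in the input samples. Here too IgG RIP was far below both, with a log2 fold change of 2.601 (SE 0.29, FDR 0.00151), and this call was lost without CELF2 RIP replicate 2 (2.39, FDR 0.0107). SRSF1 is the prototype SR protein, which shuttles to the cytoplasm.

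The shares of the rows within a gene do not depend on the scaling. In *Srsf1*, the share of NM_173374.4 in the gene's counts was 76.2, 74.7 and 76.6% in the CELF2 RIP libraries, 23.6, 34.2 and 11.5% in the IgG controls, and 80.6, 74.1 and 71.9% in the input samples. The rest was mostly in the other curated coding row, NM_001078167.2, with 22.1, 24.0 and 21.6% in the CELF2 RIP libraries, 72.6, 63.6 and 87.5% in the IgG controls, and 16.5, 23.5 and 23.5% in the input samples. CELF2 RIP and input overlapped in both rows, and IgG RIP lay apart from them. In *Srsf2*, NM_011358.2 took 70.3, 77.2 and 73.8% in the CELF2 RIP libraries, 31.5, 33.7 and 15.3% in the IgG controls, and 60.9, 56.8 and 57.4% in the input samples, and the predicted coding row XM_011248835.2 took the remainder. IgG RIP was again the group apart, and CELF2 RIP lay above input. Shares are given without a test.

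**Figure D4:**
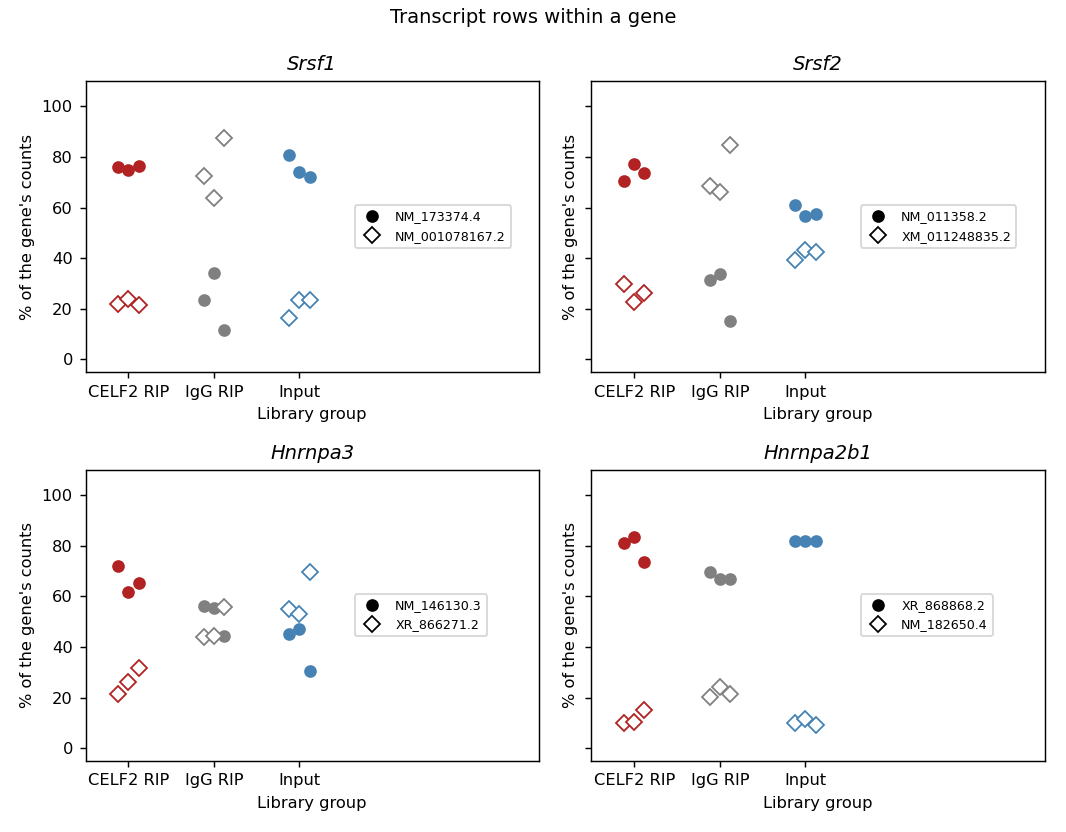
Percent of the gene's counts held by the 2 largest transcript rows of *Srsf1*, *Srsf2*, *Hnrnpa3* and *Hnrnpa2b1* in each library (filled and open symbols are the 2 rows, colours the groups). In *Srsf1* and *Srsf2* the order of the rows is turned in IgG RIP. In *Hnrnpa3* the coding row leads in all 3 CELF2 RIP libraries and in IgG RIP replicates 1 and 2, but not in input.

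The third largest rise among the called rows was the coding row NM_146130.3 of *Hnrnpa3*. Its levels were 192, 176 and 151 CPM in the CELF2 RIP libraries, 56.9, 50.4 and 49.5 CPM in the IgG controls, and 96.5, 101 and 50.8 CPM in the input samples. CELF2 RIP lay above all controls, and the controls overlapped. The log2 fold change was 1.73 (SE 0.26, FDR 0.00443). This call was kept in only 2 of the 9 fits without 1 library, those without input replicate 2 or 3, with values from 1.47 to 1.81 and a largest FDR of 0.0294. All its noncoding counts, shown above, lay in the predicted row XR_866271.2.

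The other coding rows called higher over IgG RIP were NM_029872.1 of *Hnrnpa0* (1.499), NM_010447.5 of *Hnrnpa1* (1.42), NM_013663.5 of *Srsf3* (1.30) and NM_001081196.1 of *Hnrnpul2* (1.18). The first was kept in all 9 fits without 1 library, the second in 5, the third in 1 and the fourth in 6.

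The coding row that fell was NM_182650.4 of *Hnrnpa2b1*. Its levels were 7.67, 6.11 and 7.65 CPM in the CELF2 RIP libraries, 26.7, 21.5 and 29.3 CPM in the IgG controls, and 22.9, 26.7 and 25.4 CPM in the input samples. Each CELF2 RIP library was below each control library, and the controls overlapped. The log2 fold change was -1.85 (SE 0.20, FDR 0.00131) over IgG RIP and -1.81 (FDR 0.00170) over input. The first call held in all 9 fits without 1 library and the second in 7, all but those without input replicate 2 (FDR 0.0116) or 3 (FDR 0.0107). Most counts of this gene, 81.2, 83.4 and 73.5% in the CELF2 RIP libraries, 69.5, 66.9 and 66.6% in the IgG controls, and 82.0, 82.0 and 81.7% in the input samples, lay in the predicted noncoding row XR_868868.2. The other curated coding row, NM_016806.3, was listed at 0 throughout.

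Over input, 1 coding row was higher and 3 were lower, beside 0.662% and 5.05% of coding rows. The higher row was NM_029872.1 of *Hnrnpa0* (1.002), the only row of its gene. The lower rows were NM_182650.4 of *Hnrnpa2b1*, NM_026499.4 of *Srsf6* (-1.64) and NM_016805.2 of *Hnrnpu* (-1.04). The *Hnrnpu* row is also the only row of its gene, which was not called as a gene sum (-0.46). Its row call was kept in 2 of the 9 fits without 1 library and in 0 of 8 other settings. With the replicate as a block, 0 rows were called in either direction. On the gene scale, 6 coding rows were higher. Of 8 XR_ rows tested, XR_868868.2 of *Hnrnpa2b1* was lower over input (-2.02, FDR 0.00250), beside 0.851% of XR_ rows lower and 0.372% higher. Over IgG RIP 0 XR_ rows were called, beside 1.49% higher and 1.44% lower.

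In IgG RIP over input, 0 coding rows were higher and 4 were lower, beside 0.616% and 5.81% of coding rows. They were the *Srsf1* and *Srsf2* rows above, with -2.33 and -1.90, NM_177301.5 of *Hnrnpl* (-1.34) and NM_001077265.2 of *Hnrnpd* (-1.33). Of the 9 fits without 1 library, the call was kept in 8 for the *Srsf2* row and 3 for the *Srsf1* row. It was kept in 2 for the *Hnrnpl* row and 1 for the *Hnrnpd* row. On the gene scale 1 row, that of *Srsf2*, stayed called lower. The *Hnrnpl* and *Hnrnpd* rows then stood at -0.66 (FDR 0.0273) and -0.62 (FDR 0.193). Without IgG RIP replicate 3, 9 coding rows were called lower. XR_866271.2 of *Hnrnpa3* was the XR_ row called lower in IgG RIP (-1.24), beside 1.38% of XR_ rows lower and 1.17% higher.

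Genes that act with these families were counted in 4 lists. Of 16 kinases, phosphatases and import factors of SR proteins, 4 were higher in CELF2 RIP over IgG RIP and 5 lower, beside 13.4% and 13.6% of all genes, with a median log2 fold change of 0.07. Over input 3 were higher and 1 lower, beside 14.6% and 15.5% of all genes, and the same shares stand beside the lists that follow. *Ppp1cb*, a catalytic subunit of protein phosphatase 1, had 1.26 over IgG RIP, and *Srpk3*, an SR protein kinase, -2.40. *Srpk3* had 0.42 over input, not called, and was called higher in IgG RIP over input (2.82), with means of 2.47, 13.1 and 1.84 CPM in CELF2 RIP, IgG RIP and input. Of 23 SR-related partners 3 were higher and 1 lower over IgG RIP, and 1 and 0 over input, with *Luc7l2*, a U1 snRNP partner, at 2.05 and *Pnn*, pinin, at -1.16 over IgG RIP.

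Of 34 genes of the core snRNPs and of splice site recognition, 0 were higher in CELF2 RIP against either control, while 10 were lower over IgG RIP, beside 13.6% of all genes, and 13 over input, beside 15.5%. Their medians were -0.51 and -0.97, beside -0.06 and 0.19 for all genes. *Prpf3*, a U4/U6 snRNP protein, had the largest fall over IgG RIP (-2.41, SE 0.30, FDR 9.58e-05). Of 18 genes of nonsense-mediated decay and the exon junction complex, 2 were higher and 5 lower over IgG RIP, and 1 and 5 over input. *Magoh*, a core protein of the exon junction complex, had -2.15 over IgG RIP.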

How the data were processed

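RNA was measured in 9 libraries, 3 each of CELF2 RIP, IgG RIP and input. Per the labels and the paper's methods, RNA was depleted of rRNA and reads were checked with FastQC 0.11.9, trimmed with fastp 0.23.4, cleared of rRNA with Ribodetector 0.3.1 and assigned to transcripts with kallisto 0.51.1 (mm10). The authors deposited estimated counts per transcript, not normalized for depth or length. The paper names Ensembl transcripts, while the rows carry RefSeq accessions.

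Rows were matched to genes by accession, ignoring versions, with a RefSeq gene table of GRCm38.p6: 86722 of 107384 rows matched, and 76 rows of the members had another version. The estimated counts of a gene's rows were added and then rounded. The 15267 protein-coding genes that reached 0.5 CPM in 3 libraries were tested with edgeR 4.0.16 (TMM, quasi-likelihood, a mean per group, all 9 libraries, R 4.3.3), and so were all rows passing the same filter (50417). Calls needed a Benjamini-Hochberg FDR under 0.01 and 2-fold. Levels are CPM on TMM-scaled sizes, and not per length, so levels of different genes were not compared. The ratio of NR_ to coding counts was tested on log2((NR_ + 0.5)/(coding + 0.5)) with limma 3.58.1 (FDR under 0.05), over genes with a mean of at least 0.5 CPM for both sums. DESeq2 1.42.0 served as an alternative, where the study used 1.46.0 (and edgeR 4.4.0). Other settings were another scaling, no filter, a replicate block, a test against 2-fold (glmTreat), curated rows only, another offset or minimum, and leaving out each library. Figures used Python 3.11.15, pandas 2.3.3 and matplotlib 3.10.9. The edgeR fit with TMM, the limma ratio test and diffSpliceDGE were tested on simulated counts, and the other steps and settings were not.

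The members and lists were chosen with earlier results of these data known. Every member was named; values per library were given for the 3 largest rises and falls called in each comparison, members called against both controls, called NR_ ratios, and the 3 largest rises and falls of rows over IgG RIP. *Srsf2*, *Srsf6* and *Hnrnpd* were added where their calls are described, and *Hnrnpk* was chosen after its values were seen. Of each pathway list, the genes with the largest called rise and fall over IgG RIP were named, except 1 that is not reported here.

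Replicates differed by more than sampling noise (chi-square per gene 12.2 to 46.0). Same-numbered libraries were compared by the correlation of their deviations from the group means over 11534 genes: for numbers 1, 2 and 3 it was 0.179, 0.151 and 0.236 between CELF2 RIP and input, -0.119, 0.063 and -0.048 for CELF2 RIP with IgG RIP, and 0.118, 0.115 and 0.044 for the 2 controls. By these correlations the numbers pair CELF2 RIP with input and, more weakly, IgG RIP with input. No such pattern was seen between the pull-downs, which does not show that they came from different lysates. The main fits did not use the pairing. Reads carry no molecular identifiers. Sequences of the transcripts were not used here.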

Additional observations from a re-analysis of the deposited data

How the results depend on the processing

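No call changed direction. Genes over IgG RIP (8 higher, 2 lower) gave 4 higher with DESeq2's size factors or Wald test, 3 without a filter, 2 with the upper quartile, 1 with total counts, and 1 higher and 0 lower with glmTreat. Over input (4 higher, 3 lower) they gave 1 higher with total counts or the upper quartile, and 1 higher and 1 lower with glmTreat. IgG RIP over input (1 higher, 0 lower) gave 0 higher with glmTreat, 0 higher and 1 lower with NM_ rows only, and 1 lower with version-matched rows, chosen after the data were seen. Without 1 library, genes higher ranged from 3 to 10, 2 to 8 and 0 to 1 in the 3 comparisons, and genes lower from 0 to 2, 2 to 3 and 0 to 0. Higher genes over IgG RIP numbered 3 without input replicate 2, 4 without IgG RIP replicate 2 and 5 without CELF2 RIP replicate 2, and 0 were lower without IgG RIP replicate 1 or 3. Over input 8 were higher without CELF2 RIP replicate 1, and 2 without CELF2 RIP replicate 2 or input replicate 2.

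Coding rows over IgG RIP (7 higher, 1 lower) gave 11 and 3 with the Wald test, 4 higher with the replicate block, and 4 and 4 with rows of protein-coding genes only. Over input (1 higher, 3 lower) they gave 4 and 8 with the Wald test, 0 and 0 with the replicate block, 0 higher without a filter, 2 higher with the upper quartile, 1 lower with total counts and 6 higher on the gene scale. IgG RIP over input (0 higher, 4 lower) gave 3 and 13 with the Wald test, 1 and 2 with DESeq2's size factors or the upper quartile, 2 lower with total counts, 0 lower with the block, and 1 and 1 on the gene scale or with rows of protein-coding genes only. The gene scale and the restriction to protein-coding genes were chosen after the data were seen. Without 1 library, rows higher ranged from 2 to 8, 0 to 1 and 0 to 0, and lower from 1 to 3, 0 to 5 and 0 to 9. Higher rows over IgG RIP numbered 2 without CELF2 RIP replicate 2, 3 without IgG RIP replicate 1 and 4 without CELF2 RIP replicate 3. Over input, 0 rows were lower without input replicate 2 and 5 without IgG RIP replicate 3, and between the controls 0 without input replicate 1 and 9 without IgG RIP replicate 3.

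The NR_ ratio over IgG RIP (1 lower) gave 0 with the replicate block (*Hnrnpa1* at FDR 0.0783), and 0 to 1 without 1 library. Over input (0 lower) it gave 1 with diffSpliceDGE and 1 with XR_ rows added, and IgG RIP over input 1 lower with XR_ rows added. The ratio of *Srsf9* over IgG RIP ranged from -0.58 to 0.15 without 1 library and was above 0 without IgG RIP replicate 1, and that of *Srsf3* in IgG RIP over input ranged from -0.047 to 0.26 and was below 0 without IgG RIP replicate 1 or 2, all uncalled. The replicate block changed no other gene call than that of *Srsf2*. The cause of these changes was not tested. Counts per CELF2 RIP library were low for *Hnrnph3* (27 to 46) and *Hnrnpa1l2-ps2* (30 to 42), which limits the precision of their values.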

Other observations

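A coding row of *Hnrnpa3*, NM_053263.1, was chosen after its values were seen. It held 298, 739 and 122 counts in the CELF2 RIP libraries and 0 counts in each of the 3 IgG RIP and the 3 input libraries, although input had the most counts in total. It passed the filter on low counts through CELF2 RIP alone, so no fold or test is given. It took 6.31%, 12.2% and 3.08% of the gene's counts in CELF2 RIP. How the quantifier shared reads between this row and the other rows of *Hnrnpa3* was not tested.

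*Hnrnpd* rows were also divided differently. These were also chosen after their values were seen. Of the gene's counts, NM_001077265.2 took 43.6, 55.9 and 59.9% in the CELF2 RIP libraries, 54.0, 81.7 and 34.0% in the IgG controls, and 75.2, 74.1 and 64.9% in the input samples. The row NM_001077266.2 took 34.5, 21.5 and 20.1% in the CELF2 RIP libraries, 15.4, 4.52 and 43.1% in the IgG controls, and 4.97, 6.41 and 9.56% in the input samples. CELF2 RIP lay below input in the first and above it in the second, while the IgG RIP libraries spread over both. In *Srsf5*, NM_001079694.1 took 49.5, 55.2 and 47.0% in the CELF2 RIP libraries, 29.3, 34.2 and 39.3% in the IgG controls, and 54.0, 55.5 and 59.6% in the input samples, where CELF2 RIP lay above IgG RIP, and CELF2 RIP and input overlapped.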
